A study of Mus musculus with 6 samples.

Results

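The 10 genes that direct pyruvate into or away from the mitochondrion and move lactate across the plasma membrane were compared between MC-38 tumor cells with a knock-down of HIF-1α (HIF-1α-KD) and control (Mock) cells. The genes were taken by symbol, as Pdk1, Pdk2, Pdk3, Pdha1, Pdhb, Mpc1, Mpc2, Slc16a1, Slc16a3 and Ldhb, and all 10 were found among the 22880 genes of the table and among the 12014 genes with enough reads for a test. MC-38 is a mouse colon adenocarcinoma line, here carrying green fluorescent protein. Cells of both groups had been transduced with the vector pLKO.1-puro and had no earlier passage in mice. They were grown as orthotopic tumors in the cecum wall of C57BL/6J mice, whose stroma has normal HIF-1α activity, and living cells positive for green fluorescent protein and negative for CD45 (leukocytes) and CD31 (endothelium) were sorted for sequencing of polyadenylated RNA, with 3 Mock and 3 HIF-1α-KD samples. Whether each library came from a separate tumor, and whether the knock-down line is 1 clone, is not given in the sources used here, so p-values measure the spread between these libraries alone.

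Pyruvate made by glycolysis has competing fates. The mitochondrial pyruvate carrier, a complex of the Mpc1 and Mpc2 products, brings it into the matrix, where the pyruvate dehydrogenase complex turns it into acetyl-CoA for the TCA cycle, and pyruvate dehydrogenase kinases switch this complex off by phosphorylating its E1α subunit. Otherwise lactate dehydrogenase reduces pyruvate to lactate, which leaves the cell through monocarboxylate transporters together with protons. HIF-1 is known to raise this second route in hypoxic cells, with Pdk1 and Slc16a3 among its classic target genes.

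Between 19846013 and 30809793 reads per library fell on genes. Hif1a had 6914, 5424 and 4945 normalized counts in Mock replicates 1 to 3 against 697.3, 3142 and 1928 in HIF-1α-KD replicates 1 to 3, without overlap (limma log2 fold change -1.82, standard error 0.46, adjusted p = 0.219). A normalized count is the read count of a gene divided by a factor for its library. A check used 8 HIF targets, chosen with earlier results of these data known. All 8 passed an unadjusted p of 0.05 with the lower level after knock-down (5.69% of all genes tested did). At an adjusted p of 0.05, 4 passed (0.391% of all genes tested). Car9 (limma adjusted p = 0.0553), Egln3 (0.21), Vegfa (0.294) and Adm (0.345) did not. The groups were apart for 7 (19.2% of all genes tested), with Adm as the exception. Epithelial markers were low. The summed normalized count of Epcam, Krt8, Krt18, Krt19 and Cdh1 was 60.3 to 493 in Mock and 64.8 to 111 in HIF-1α-KD libraries, with the highest sum in Mock replicate 3, so the labelled carcinoma origin was not visible in these markers. The sum of 10 leukocyte markers was 4773 to 4935 in Mock libraries, and 2921, 3228 and 14540 in HIF-1α-KD replicates 1, 2 and 3, so that replicates 1 and 2 lay below every Mock library and replicate 3, where Lyz2 reached 8877, above. Of the 9 leukocyte markers tested, 0 passed an unadjusted limma p of 0.05, with a median log2 fold change of -0.25. Without HIF-1α-KD replicate 3, 7 of the 9 were lower at this limit (5.88% of all genes tested in that fit were), with a median of -0.89 and 0 at an adjusted p under 0.05, and in that fit the log2 fold change was -1.66 for Pdk1 (adjusted p = 0.0622) and -1.19 for Slc16a3 (adjusted p = 0.0867). The sum of 7 endothelial markers was 511 to 625 in Mock and 322 to 484 in HIF-1α-KD libraries, with Emcn and Cldn5 at 2.40 or less everywhere. Of the 3 endothelial markers tested, Cdh5 had means of 508 (Mock) and 293 (HIF-1α-KD) at an unadjusted limma p of 0.013, while Pecam1 and Tek had log2 fold changes of 0.26 and 1.26. The sum of 7 markers of mesenchymal stroma was 26140 to 48040 in Mock and 21820 to 34510 in HIF-1α-KD libraries, and most of it was Dcn (log2 fold change -0.38). Of these 7 markers, 3 were higher in HIF-1α-KD cells at an unadjusted limma p under 0.05 (7.04% of all genes tested were). They were Cspg4 (log2 fold change 1.42), Rgs5 (1.15) and Pdgfrb (0.59), while Des (0.39), Acta2 (0.33) and Lum (-0.16) did not pass. Cspg4 and Rgs5, 2 of the 7, did not overlap between the groups (19.2% of all genes tested did not). Without Mock replicate 1 the count was 1 higher, and without HIF-1α-KD replicate 1 it was 1 higher and 1 lower. In these fits 8.42% and 11.8% of all genes tested passed in either direction. The median log2 fold change was 0.39 over the mesenchymal list and 0.26 over the tested endothelial markers. With 1 library left out, these medians ran from 0.20 to 0.64 and from 0.01 to 0.61. The part of other cells in the results was not tested.

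Of the 10 genes, 2 were called at an adjusted p under 0.05, both lower in HIF-1α-KD cells, namely the kinase Pdk1 and the lactate exporter Slc16a3. The share called among all genes tested was 0.391%. At an unadjusted p under 0.05 there were 5 of the 10 genes (12.7% of all genes tested), and 4 of these were lower, namely Pdk1, Slc16a3, Pdk3 and Mpc1 (5.69% of all genes tested were lower at this limit), while Ldhb was higher. Mock and HIF-1α-KD values were fully separate for 6 of the 10 genes, the 5 just named and Slc16a1, against 19.2% of all genes tested. The median log2 fold change of the 10 genes was -0.20, beside 0.02 for all genes tested. All log2 fold changes are HIF-1α-KD minus Mock on the scale of log2 of the normalized count plus 1. Adjusted p-values come from limma with the method of Benjamini and Hochberg over all genes tested.

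**Figure D1:**
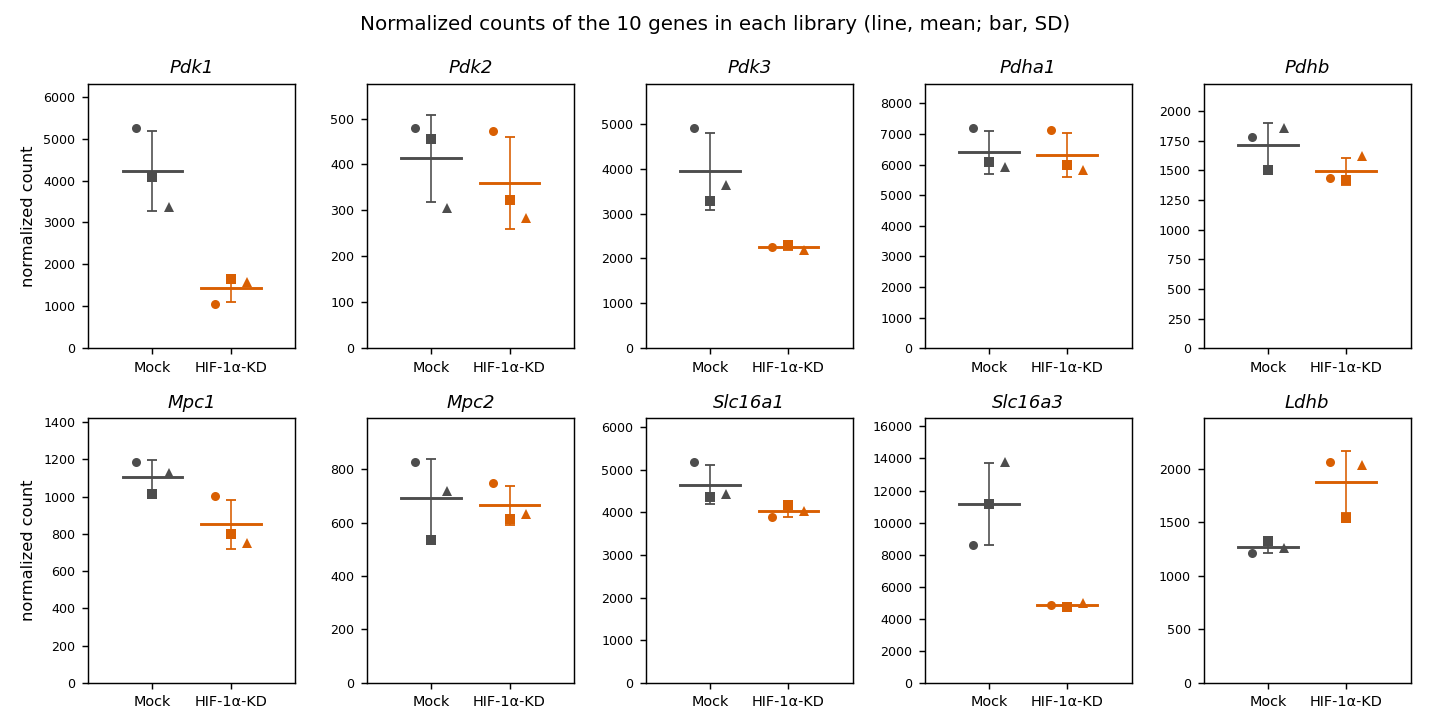
Normalized counts (vertical axes, each from 0) of the 10 genes in the 3 Mock (grey) and 3 HIF-1α-KD (orange) libraries, with circles, squares and triangles for replicates 1, 2 and 3, a line for the mean and a bar for the SD. Pdk1, Pdk3 and Slc16a3 lie lower in every HIF-1α-KD library and Ldhb higher, while the values of Pdk2, Pdha1, Pdhb and Mpc2 overlap.

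Of the kinases, Pdk1 was called lower and Pdk2 and Pdk3 were not called. The difference between their fold changes was tested only through the share of Pdk1, given with the levels. Pdk1 (ENSMUSG00000006494, GRCm38 chromosome 2, 71873224 to 71903858, plus strand), the isoform most tied to hypoxia, had 5262, 4076 and 3364 normalized counts in the Mock libraries, against 1061, 1640 and 1578 in the HIF-1α-KD libraries. The lowest Mock library thus stood above the highest HIF-1α-KD library. Pdk1 fell 2.97-fold on the fitted scale, with means of 4234 ± 959 (Mock) and 1426 ± 318 (HIF-1α-KD) (SD, n = 3 each). Its log2 fold change was -1.57 ± 0.22 (standard error), at an adjusted p of 0.0281 in limma. Fewer cells expressing a gene and less RNA per cell cannot be told apart in such bulk samples. Fits that each lacked 1 library gave Pdk1 log2 fold changes from -1.72 to -1.37, and its adjusted p was 0.0424 without HIF-1α-KD replicate 1 and between 0.0622 and 0.132 without any of the other 5 libraries, so the call ended although the size held. It also ended with limma without trend (adjusted p = 0.112) and with a replicate block (adjusted p = 0.101).

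Pdk3 (ENSMUSG00000035232, chromosome X, 93764607 to 93832201, minus strand), the isoform known for high activity and weak inhibition by pyruvate, had 4918, 3281 and 3638 normalized counts in the Mock libraries, against 2254, 2297 and 2188 in the HIF-1α-KD libraries. The HIF-1α-KD libraries lay close together and below all Mock libraries, with a log2 fold change of -0.79 (95% confidence interval -1.18 to -0.40, limma adjusted p = 0.154, unadjusted p = 0.00131). Among all alternatives run, only the Wald test of DESeq2 on the recovered reads called it, with an adjusted p of 0.00371. Pdk2 (ENSMUSG00000038967, chromosome 11, 95026258 to 95041354, minus strand), the most widely expressed isoform of the body, had 480.1, 454.6 and 305.6 normalized counts in the Mock libraries, against 472.1, 322.5 and 284.2 in the HIF-1α-KD libraries. The groups overlapped, and the log2 fold change was -0.21, with an interval of -0.80 to 0.38 that leaves room for a change in either direction. Pdk4, the isoform of fasting and fat use, had no read in any library.

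Levels of different genes were compared per length, as FPKM. In Mock cells Pdk3 had 151 ± 29.1 FPKM (SD, n = 3), Pdk1 93.8 ± 20.4 FPKM (SD, n = 3) and Pdk2 17.7 ± 4.23 FPKM (SD, n = 3), and their ranges did not overlap. In HIF-1α-KD cells Pdk3 had 89.7 ± 2.82 FPKM (SD, n = 3), Pdk1 33.0 ± 8.02 FPKM (SD, n = 3) and Pdk2 15.9 ± 3.96 FPKM (SD, n = 3). Pdk3 was therefore the most abundant kinase transcript per length in both groups. Pdk1 supplied 35.7 ± 2.77% of the summed kinase FPKM in Mock and 23.7 ± 4.87% in HIF-1α-KD cells (SD, n = 3 each), a difference of -12.0 percentage points without overlap (exact permutation, two-sided, p = 0.1, and 3 libraries against 3 cannot give a smaller one). This share does not depend on the scaling of the libraries. It does depend on transcript length, because the deposited width matched the mean length of the annotated transcripts of a gene, short noncoding ones included, to within 1% for 8 of the 10 genes. With the longest coding transcript as length, the share of Pdk1 was 28.5% in Mock and 18.4% in HIF-1α-KD cells, and the order of the kinases was the same.

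The promoters of Pdk1 and Pdk3, the kinases whose groups did not overlap, are shown because HIF-1 is known to bind a short core, ACGTG or GCGTG. Capitals mark these letters on either strand, so that CACGT and CACGC mark the minus strand. The windows run from 250 bases before to 50 bases after the RefSeq start (GRCm38.p6) and are written 5′ to 3′ along the gene, Pdk1 at chr2:71872974-71873273 on the plus strand and Pdk3 at chrX:93832101-93832400 on the minus strand.

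Pdk1: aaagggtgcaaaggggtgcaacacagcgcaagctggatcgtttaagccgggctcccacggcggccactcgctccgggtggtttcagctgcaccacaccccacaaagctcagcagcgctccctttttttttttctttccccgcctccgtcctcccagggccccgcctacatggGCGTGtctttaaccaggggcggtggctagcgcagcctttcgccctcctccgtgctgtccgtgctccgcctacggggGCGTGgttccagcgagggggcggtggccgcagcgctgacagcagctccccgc

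Pdk3: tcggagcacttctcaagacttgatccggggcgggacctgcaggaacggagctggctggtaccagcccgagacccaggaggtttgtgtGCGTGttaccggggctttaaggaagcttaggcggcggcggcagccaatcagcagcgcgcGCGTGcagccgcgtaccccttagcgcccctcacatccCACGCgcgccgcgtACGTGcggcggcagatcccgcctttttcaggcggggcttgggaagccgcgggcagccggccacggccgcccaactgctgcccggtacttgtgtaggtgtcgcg

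The Pdk1 window held GCGTG at 2 places, starting at positions -78 and -2 from the start, and no ACGTG. A second RefSeq start of Pdk1 had neither core. The Pdk3 window held 1 ACGTG, starting at position -53, and 3 GCGTG. Among all 32851 promoter windows of this length, 19.6% held ACGTG, 32.4% held GCGTG and 43.8% held at least 1 of these. Of the 13 windows of the 10 genes, 5 held ACGTG (those of Pdk2, Pdk3, Pdhb, Slc16a1 and Slc16a3) and 10 held either, so each of the 10 genes had 1 such window, the 8 that were not called included. These matches describe letters in a window, and binding was not measured.

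The E1 subunits of the pyruvate dehydrogenase complex, the target of the kinases, were not called, and their groups overlapped. Pdha1 (ENSMUSG00000031299, chromosome X, 160122209 to 160138413, minus strand), which encodes the E1α subunit that the kinases phosphorylate, had 7205, 6079 and 5912 normalized counts in the Mock libraries, against 7140, 5985 and 5834 in the HIF-1α-KD libraries. The groups covered nearly the same range, and the log2 fold change was -0.02 with a 95% confidence interval of -0.35 to 0.32. The direction of this value turned with the scaling, to 0.04 with library size alone. Exons of Pdha1 overlap 603 bases of exons of Map3k15 on the opposite strand, which had 2 to 14 reads per library. Pdhb (ENSMUSG00000021748, chromosome 14, 8165996 to 8173025, minus strand), which encodes the E1β subunit, had 1780, 1501 and 1861 normalized counts in the Mock libraries, against 1439, 1420 and 1626 in the HIF-1α-KD libraries. The groups overlapped, with a log2 fold change of -0.19 (95% confidence interval -0.53 to 0.14). Set against their target, the summed FPKM of Pdk1, Pdk2 and Pdk3 was 1.33, 1.14 and 1.13 times that of Pdha1 in the Mock libraries, against 0.534, 0.678 and 0.658 times in the HIF-1α-KD libraries, a ratio chosen after the values were seen and given as a description of transcripts, not of enzyme activity.

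The carrier subunits that admit pyruvate to the matrix had small or no measured differences. Mpc1 (ENSMUSG00000023861, chromosome 17, 8282904 to 8297661, plus strand) had 1184, 1012 and 1126 normalized counts in the Mock libraries, against 1003, 799.8 and 752.0 in the HIF-1α-KD libraries. The highest HIF-1α-KD library lay just below the lowest Mock library. Its log2 fold change was -0.39 (95% confidence interval -0.76 to -0.01, limma adjusted p = 0.387, unadjusted p = 0.0461), and the unadjusted p was above 0.05 without any single Mock library, without HIF-1α-KD replicate 2 or 3, with library size scaling, with DESeq2, with limma without trend and with a replicate block. Mpc2 (ENSMUSG00000026568, chromosome 1, 165460637 to 165481214, plus strand), its partner, had 826.0, 536.9 and 717.5 normalized counts in the Mock libraries, against 748.8, 615.1 and 631.8 in the HIF-1α-KD libraries. The HIF-1α-KD values lay inside the Mock range, and the log2 fold change was -0.04 (95% confidence interval -0.50 to 0.41), which was 0.01 with scaling by library size.

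Of the monocarboxylate transporters, Slc16a3 was called lower and Slc16a1 was not. Slc16a3 (ENSMUSG00000025161, chromosome 11, 120948480 to 120960868, plus strand) encodes MCT4, the exporter typical of glycolytic cells. It had 8582, 11140 and 13750 normalized counts in the Mock libraries, against 4842, 4741 and 4996 in the HIF-1α-KD libraries. The Mock libraries were spread widely and the HIF-1α-KD libraries hardly at all, without overlap. Slc16a3 fell 2.25-fold on the fitted scale, with means of 11160 ± 2584 (Mock) and 4860 ± 128 (HIF-1α-KD) (SD, n = 3 each). Its log2 fold change was -1.17 ± 0.18 (standard error), at an adjusted p of 0.0362 in limma. Fits that each lacked 1 library gave log2 fold changes from -1.35 to -1.01, and the adjusted p was between 0.0515 and 0.161, so the call ended without any of the 6 libraries, and it also ended with scaling by library size (adjusted p = 0.0575), with limma without trend (0.143) and with a replicate block (0.0727).

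Slc16a1 (ENSMUSG00000032902, chromosome 3, 104638668 to 104658462, plus strand) encodes MCT1, which carries lactate in either direction. It had 5167, 4346 and 4434 normalized counts in the Mock libraries, against 3893, 4173 and 4027 in the HIF-1α-KD libraries. The groups did not overlap, yet the gap was small, with a log2 fold change of -0.20 (95% confidence interval -0.50 to 0.10, limma adjusted p = 0.562). Slc16a3 made up 86.8 ± 3.77% of the summed FPKM of both transporters in Mock and 77.5 ± 0.912% in HIF-1α-KD cells (SD, n = 3 each), a difference of -9.31 percentage points (two-sided exact permutation test, p = 0.1, the smallest possible). The share was lower in 3 of 3 HIF-1α-KD libraries than in any Mock library. The size of the shift depended on the length used, since with the longest coding transcripts the share went from 70.4% to 55.2%, a difference of -15.2 percentage points. Slc16a7 and Slc16a8, further monocarboxylate transporters, had at most 13.9 and 0 normalized counts in a library.

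The transporter promoters are shown because 1 of the pair was called lower and the other was not, Slc16a3 at chr11:120948817-120949116 and Slc16a1 at chr3:104638414-104638713, both on the plus strand and marked in the same way.

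Slc16a3: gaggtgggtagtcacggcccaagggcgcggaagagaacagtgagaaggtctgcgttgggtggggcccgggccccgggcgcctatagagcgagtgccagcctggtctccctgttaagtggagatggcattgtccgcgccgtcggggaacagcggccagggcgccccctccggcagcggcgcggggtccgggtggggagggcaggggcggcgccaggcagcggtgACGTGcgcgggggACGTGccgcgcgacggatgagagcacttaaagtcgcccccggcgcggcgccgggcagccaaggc

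Slc16a1: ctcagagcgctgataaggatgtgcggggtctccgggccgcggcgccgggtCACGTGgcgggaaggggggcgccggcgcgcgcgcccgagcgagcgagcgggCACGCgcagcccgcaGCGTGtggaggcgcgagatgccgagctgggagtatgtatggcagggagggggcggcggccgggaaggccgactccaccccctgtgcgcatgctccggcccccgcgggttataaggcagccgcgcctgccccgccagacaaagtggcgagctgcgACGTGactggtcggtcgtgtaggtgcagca

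The Slc16a3 window held ACGTG at 2 places on the plus strand, starting at positions -27 and -14, and no GCGTG. The Slc16a1 window held more matches, with ACGTG at position 21 and within a CACGTG that reads the same on both strands at position -200, and with GCGTG once on each strand.

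Ldhb (ENSMUSG00000030246, chromosome 6, 142490249 to 142507957, minus strand) encodes the H subunit of lactate dehydrogenase, the form that favors turning lactate back into pyruvate. It was the only one of the 10 genes with a log2 fold change above 0. It had 1218, 1322 and 1265 normalized counts in the Mock libraries, against 2061, 1540 and 2035 in the HIF-1α-KD libraries. Each HIF-1α-KD library lay above each Mock library, with means of 1268 ± 52.1 and 1879 ± 294 in Mock and HIF-1α-KD cells (SD, n = 3 each). The log2 fold change was 0.55 (95% confidence interval 0.19 to 0.92, limma adjusted p = 0.258, unadjusted p = 0.00728), and fits lacking 1 library gave 0.48 to 0.69. Ldha encodes the M subunit, which favors lactate production, and fell, with mean normalized counts of 66580 ± 6717 (Mock) and 30080 ± 3548 (HIF-1α-KD) and a log2 fold change of -1.15 (SD, n = 3 each, limma adjusted p = 0.0281). The adjusted p of Ldha was 0.0424 without HIF-1α-KD replicate 1 and rose above 0.05, up to 0.137, without any of the other 5 libraries. It was also above 0.05 with a replicate block (0.071), with limma without trend (0.0987) and without the filter on low counts (0.0538). Ldhb was 1.59%, 2.10% and 1.86% of the summed FPKM of both subunits in the Mock libraries, against 5.62%, 5.31% and 6.35% in the HIF-1α-KD libraries. The share was thus higher in every HIF-1α-KD library, by 3.91 percentage points on average (two-sided exact permutation test, p = 0.1, the smallest possible), and the p-values of all 3 isoform shares stayed at 0.1 after adjustment over the 3 tests. The M subunit still made up most of the transcript in both groups.

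**Figure D2:**
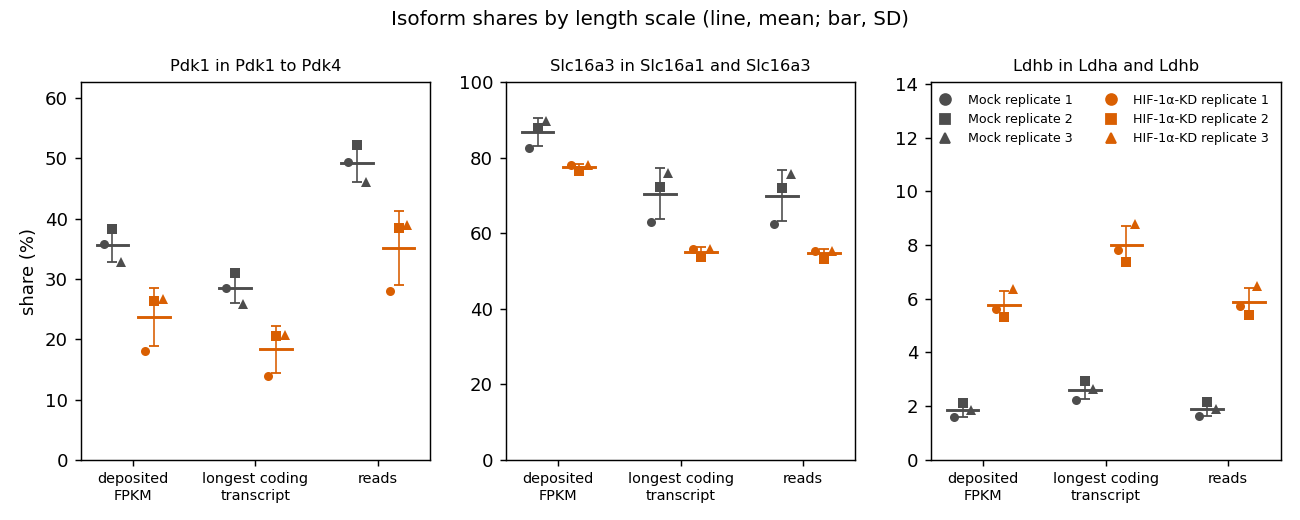
Share of Pdk1 among kinases (left), of Slc16a3 among both transporters (middle) and of Ldhb among both lactate dehydrogenase subunits (right), in percent of the summed level, for each library of Mock (grey) and HIF-1α-KD (orange) cells, with lines for means and bars for SD. On each of the 3 length scales, the groups do not overlap, and the Slc16a3 share moves from 86.8% by FPKM to 70.4% by longest coding transcript in Mock cells.

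Across all 10 genes, the order of levels per length changed between the groups. In Mock cells Slc16a3 stood first at 288 ± 66.5 FPKM (SD, n = 3) and Pdha1 next at 218 ± 21.2 FPKM (SD, n = 3), with overlapping ranges. In HIF-1α-KD cells Pdha1 stood first at 224 ± 19.6 FPKM (SD, n = 3) and Slc16a3 followed at 130 ± 5.11 FPKM (SD, n = 3), without overlap. Pdk1 went from the fourth place, above Mpc1, Ldhb, Pdhb and Slc16a1, to the eighth, below them, although its range then overlapped that of Slc16a1. Ldhb went from the sixth place at 53.2 FPKM to the fourth at 81.8 FPKM, where its range overlapped that of Pdk3. Pdk2 and Mpc2 were lowest in both groups, at 15.2 to 17.7 FPKM on average, and did not differ from each other beyond their spread. On the scale of longest coding transcripts the Mock order was different below Pdk3, with Pdk1 at 817 normalized counts per kilobase under Mpc1, Pdhb, Slc16a1 and Ldhb (973 to 1152), while Pdk2 (184) stood below Mpc2 (677). In HIF-1α-KD cells Pdha1 was again first (2219) on that scale, followed by Ldhb (1441), Slc16a3 (1121) and Pdk3 (1062), and Pdk1 (275) lay below Mpc2 (649) and above Pdk2 (160). The place of Slc16a3 after Pdha1 in HIF-1α-KD cells, that of Mpc2 among the lowest and those in the middle thus rest on the length used. So does the fall of Pdk1 past Mpc1, Ldhb, Pdhb and Slc16a1, since by longest coding transcript it lay below them in Mock cells already.

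The levels were also set beside Hif1a in the same libraries. HIF-1α-KD replicate 1, with the fewest Hif1a counts, also had the fewest Pdk1 counts, and Mock replicate 1, with the most Hif1a, had the most Pdk1. Within both groups the libraries took the same order for Pdk1 as for Hif1a. The order within Mock was not particular to Pdk1, since Pdk2 and Pdha1, whose groups overlapped, had it too. Slc16a3 showed the opposite order within Mock, where replicate 1 was lowest, and within HIF-1α-KD libraries it differed little while Hif1a ranged from 697.3 to 3142. Pdk3 too was nearly level across the HIF-1α-KD libraries. With 3 libraries per group these orders are descriptions.

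**Figure D3:**
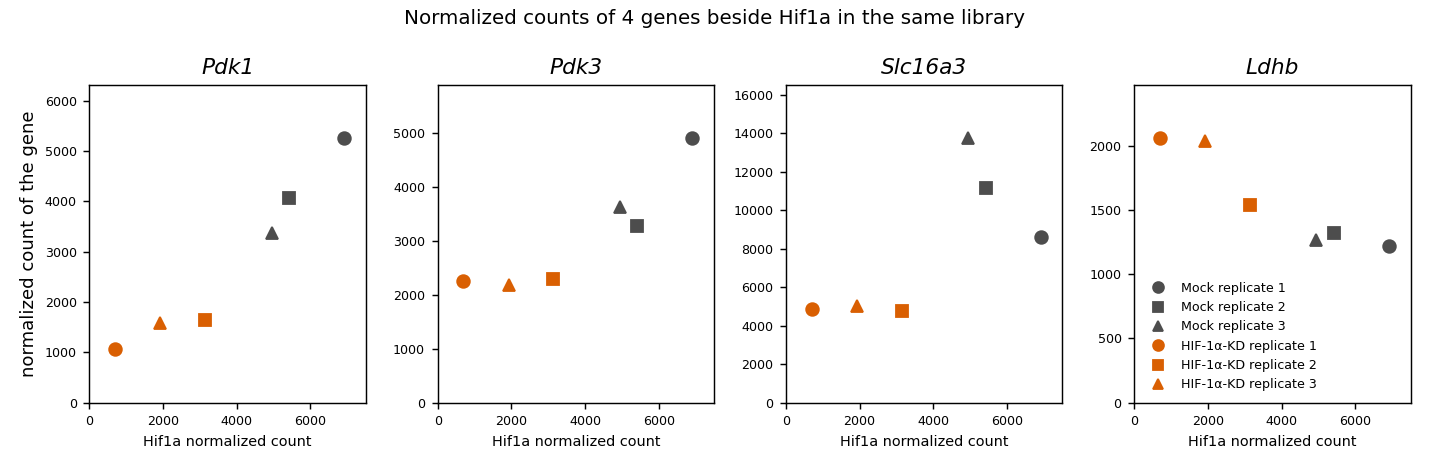
Normalized counts of Pdk1, Pdk3, Slc16a3 and Ldhb (vertical axes, from 0) against those of Hif1a (horizontal axis) in the same library, with Mock in grey, HIF-1α-KD in orange and circles, squares and triangles for replicates 1, 2 and 3. Pdk1 follows the order of Hif1a within both groups, whereas Slc16a3 is lowest among Mock libraries where Hif1a is highest.

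The genes with the profile most like that of Pdk1 over the 6 libraries were Ak4, Mgarp and Rhob. Their centered log2 profiles differed from that of Pdk1 by a root mean square of 0.13, 0.15 and 0.15, where the median over all genes tested was 0.88. For Slc16a3 they were Pfkl, Sertad1 and Sema3f, at 0.10, 0.14 and 0.14, with a median of 0.68 over all genes tested. Pfkl encodes the liver-type subunit of phosphofructokinase, a glycolytic enzyme, and Ak4 a mitochondrial adenylate kinase.

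The wider pathway was described with 29 further genes in 3 lists. Of these, 22 had enough reads for a test, and 5 of the 22 had an unadjusted p under 0.05, 4 lower and 1 higher, where 12.7% of all genes tested did. In the first list, the other subunits, phosphatases and lipoate enzymes of the pyruvate dehydrogenase complex, 0 of 10 tested genes passed either limit in the limma test used throughout. Pdp1 had an unadjusted p of 0.047 with edgeR, 0.0402 with limma without trend, 0.0476 with limma without Mock replicate 3 and 0.052 with DESeq2. In limma it was 0.143 without HIF-1α-KD replicate 2 and 0.205 without Mock replicate 1, where the log2 fold change was -0.38. Dlat, the E2 acetyltransferase core, had a log2 fold change of -0.13, Dld, the E3 dehydrogenase, -0.05, and Lias, the lipoate synthase, -0.10. Pdp1, a phosphatase that reverses the action of the kinases, had 192.0, 110.1 and 106.3 normalized counts in the Mock libraries, against 80.4, 75.5 and 93.6 in the HIF-1α-KD libraries (log2 fold change -0.65, unadjusted p = 0.0586 in the limma fit across all genes, without a permutation test). The median of the list was -0.12.

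In the second list, on exchange of lactate and pyruvate, 4 of 10 genes were tested, and 2 were lower at an unadjusted p under 0.05, Ldha and Bsg, where 5.69% of all genes tested were. Bsg encodes basigin, the chaperone that brings MCT1 and MCT4 to the plasma membrane, and had 26550, 21990 and 27550 normalized counts in the Mock libraries, against 12940, 16160 and 16400 in the HIF-1α-KD libraries. The groups did not overlap, with a log2 fold change of -0.74 (limma adjusted p = 0.155, DESeq2 adjusted p = 0.00334). Emb, which encodes embigin, another partner of these transporters, had a log2 fold change of -0.14. Ldhc, Slc16a8 and Slc5a12 had no read in any library. In the third list, on other fates of pyruvate, 3 of 8 genes had an unadjusted p under 0.05 (12.7% of all genes tested). Pkm, the pyruvate kinase that makes pyruvate, was lower at that limit (log2 fold change -0.81, limma adjusted p = 0.0827), and was called by edgeR (adjusted p = 0.0483) and DESeq2 (adjusted p = 7.09e-06). Me2, a mitochondrial malic enzyme, was also lower at that limit (log2 fold change -0.71, limma adjusted p = 0.154) and was called by DESeq2 (adjusted p = 0.00716). Gpt2, the mitochondrial alanine transaminase, was higher, with 2751, 2276 and 2573 normalized counts in the Mock libraries, against 3313, 3062 and 3543 in the HIF-1α-KD libraries (log2 fold change 0.39, limma adjusted p = 0.332, unadjusted p = 0.0221). The unadjusted p of Gpt2 in limma was 0.0771 without Mock replicate 2 and 0.0808 without HIF-1α-KD replicate 3. Me3, another mitochondrial malic enzyme with mean normalized counts of 31.0 (Mock) and 14.1 (HIF-1α-KD), had an unadjusted limma p of 0.0786, of 0.0112 without HIF-1α-KD replicate 3 and of 0.0414 with a replicate block. The p of Me3 was 0.155 without Mock replicate 1, 0.201 without Mock replicate 3 and 0.273 without HIF-1α-KD replicate 2. Its log2 fold change was -2.21 without HIF-1α-KD replicate 3 and -0.67 without HIF-1α-KD replicate 2. Cs, the citrate synthase that takes up acetyl-CoA, had a log2 fold change of -0.13, and Me1, the cytosolic malic enzyme, one of -0.33. Pcx, the pyruvate carboxylase, had one of -0.12. Among 12 genes taken as a guide to mitochondrial content, Vdac1 was lower and Hspd1 higher at an unadjusted p under 0.05 (12.7% of all genes tested passed it), 0 passed an adjusted p of 0.05 in limma, and the median was -0.06.

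**Figure D4:**
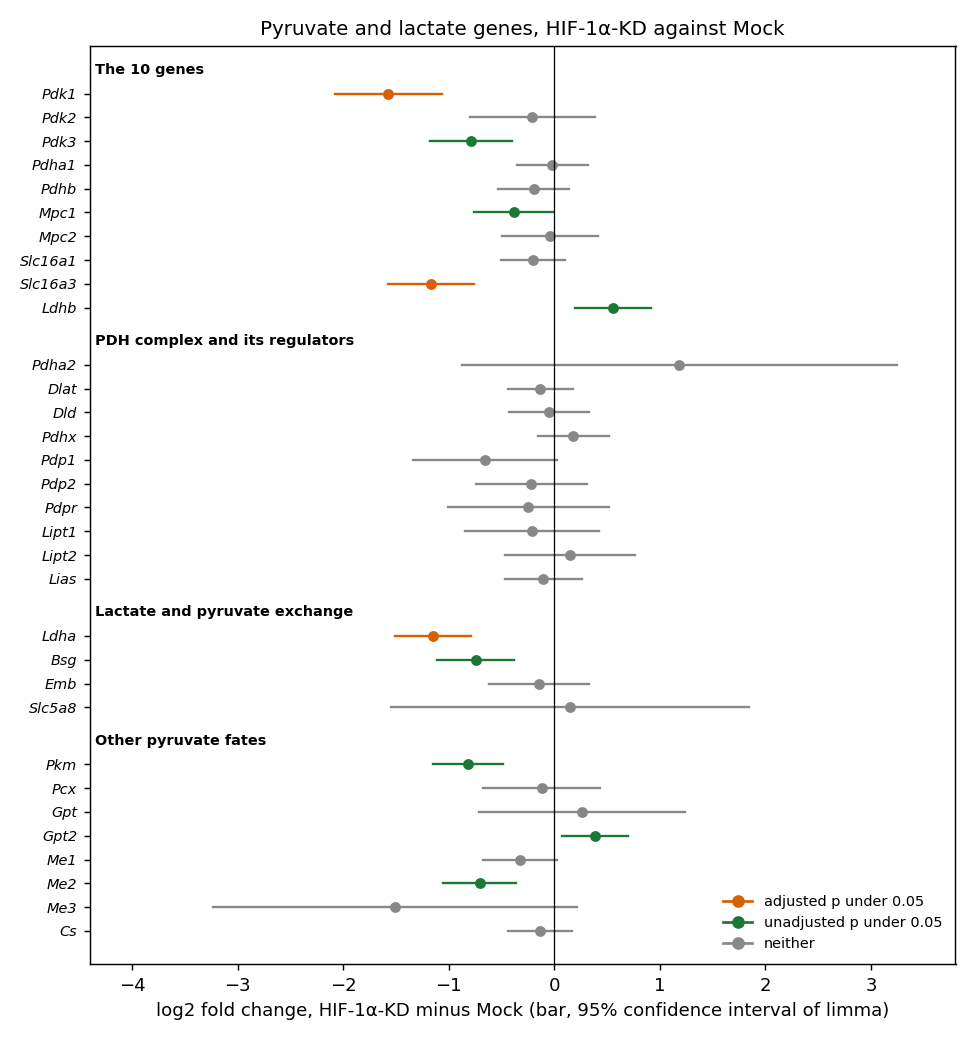
Log2 fold change (horizontal axis, HIF-1α-KD minus Mock) with the 95% confidence interval of limma for the 10 genes and for the 22 tested genes of the 3 lists. Pdk1, Slc16a3 and Ldha, in orange, are at an adjusted p under 0.05 and lie between -1.57 and -1.15, while the intervals of Pdha1, Dlat, Dld and Cs span 0.

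Some of the counts may share reads with near copies. Of the 100-base stretches in the coding transcripts, 11.3% of those of Mpc1, 10.5% of those of Pdhb and 6.44% of those of Ldhb also occurred in a processed pseudogene, and 0% of those of the other 7 genes occurred in a transcript of another gene. How reads with several alignments were counted is not given in the sources used here. Exons of Mpc1 also overlap 480 bases of a noncoding gene on the opposite strand. The library kit keeps the strand of the RNA, but whether the counting used it is not given in the sources used here.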

How the data were processed

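The 6 libraries of sorted MC-38 tumor cells were grouped by their labels, 3 as Mock and 3 as HIF-1α-KD. The authors trimmed and aligned the reads with STAR and counted them on genes with featureCounts, and they tested genes with DESeq2, while the submitters' processing notes name edgeR. The methods name GRCh38, the labels name GRCm38, and the gene identifiers are those of mouse. The authors deposited normalized counts, a signal made by dividing each read count by 1 factor per library, and FPKM values, scaled by the deposited width and the library total. Columns with the authors' own log2 ratio, p-value, false discovery rate and cluster were not used.

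Reads were recovered from the normalized counts by the step of each column, and 100% of values up to 300 reads were whole to within 0.1. Values were printed to 4 digits, so reads of high genes are approximate. Libraries held 19846013 to 30809793 reads. Genes were filtered with filterByExpr of edgeR 4.0.16 (minimum count of 10), and log2 of the normalized count plus 1 was fitted with limma 3.58.1 with a mean-variance trend across all 12014 genes, two-sided. Isoform shares were compared with a two-sided exact permutation test in scipy 1.17.1. No pair of libraries within a group matched to within counting error (chi-square per degree of freedom of 30.6 to 97.6).

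Whether the replicate numbers pair the samples is not given in the sources used here. Deviations of same-numbered libraries from their group means correlated at -0.14, -0.12 and 0.02 across genes. Libraries with different numbers correlated at -0.07 to 0.16. With 3 libraries per group these values cannot decide whether samples were paired.

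The genes and lists were chosen with earlier results of these data known. Named are all 10 genes, the genes of 3 pathway lists at an unadjusted p under 0.05 and up to 3 others of each list by FPKM, and the 3 genes with the profile nearest to Pdk1 and to Slc16a3. Pdp1, Me3, the HIF targets, the non-member markers and the genes without reads were named after their values were seen. Alternatives were edgeR and DESeq2 1.42.0 on recovered reads, limma without trend, TMM and library size scaling, no filter, pseudocounts of 0.1 and 10, a replicate block and each library left out. The tests were also run on simulated counts, drawn independently for each gene and library, and the outcome is not given here. Promoters are from RefSeq (GRCm38.p6), positions and transcripts from GENCODE M21, and all 10 genes matched both. R 4.3.3, Python 3.11.15, pandas 2.3.3, numpy 2.4.6 and matplotlib 3.10.9 were used.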

Additional observations from a re-analysis of the deposited data

How the results depend on the processing

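The log2 fold changes of Pdk1 (-1.72 to -1.37), Slc16a3 (-1.35 to -1.01), Pdk3 (-0.91 to -0.62), Mpc1 (-0.51 to -0.30), Pdhb, Pdk2, Slc16a1 and Ldhb (0.48 to 0.69) kept their direction under all 15 alternatives. The number of the 10 genes at an adjusted p under 0.05 was 2 with edgeR, TMM, no filter and pseudocounts of 0.1 and 10, and 3 with DESeq2, but 1 with library size scaling, 0 with limma without trend (4 at an unadjusted p under 0.05) and between 0 and 1 with each library left out (Pdk1 alone, without HIF-1α-KD replicate 1). With 2 libraries in a group the fit has fewer degrees of freedom. The cause of the changes in this number was not tested for any alternative. The replicate block, built on numbers not known to pair the samples, gave 0 of the 10 genes (4 at an unadjusted p under 0.05). Its adjusted p was 0.101 for Pdk1 and 0.0727 for Slc16a3. In limma without trend the adjusted p was 0.112 for Pdk1 and 0.143 for Slc16a3. At an unadjusted p under 0.05 the count was 4 or 5 of the 10 genes and 4 to 7 of the pathway genes under all alternatives, where 8.42% to 13.4% of all genes tested passed. Values near 0 turned direction for Pdha1, to 0.0381 with library size scaling and to 0.018, 0.0365 and 0.0702 without HIF-1α-KD replicate 2, HIF-1α-KD replicate 3 and Mock replicate 1, and for Mpc2, to 0.0134 with library size scaling and to 0.0107 and 0.0943 without HIF-1α-KD replicate 2 and Mock replicate 1. The lowest values were -0.1092 for Pdha1 and -0.216 for Mpc2, without HIF-1α-KD replicate 1 and Mock replicate 2. The difference in Slc16a3 share was -15.3 percentage points from reads and -15.2 with the longest coding transcripts in place of -9.31, and that in Ldhb share 5.38 in place of 3.91. The length by longest coding transcript was added after seeing the data. Over all genes, 47 were called, against 283 with DESeq2, 1 without trend (1397 at an unadjusted p under 0.05), 0 with the replicate block (1324) and 0 to 38 with a library left out. Scaling moved the median of all genes by at most 0.08. Each of the 10 genes had at least 246 reads in every library, so the spread between 3 libraries a group, more than counting error, sets the precision.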
